A study of Drosophila melanogaster with 3 samples.

Results

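The cytosolic ribosomal protein genes of Drosophila melanogaster were examined for binding of the tagged transcription factor shaven (sv). They were taken as the protein-coding genes of the Ensembl annotation whose symbol begins with RpL or RpS followed by a digit or P, together with stubarista (sta), which encodes a small subunit protein. This gave 93 genes of 13945 protein-coding genes on 6 chromosome arms, of which 54 name large subunit proteins and 39 name small subunit proteins. The data are peak lists from chromatin immunoprecipitation and sequencing of 1 group of 3 biological replicates. Each replicate was whole wandering larvae of the third instar, males and females pooled, from a transgenic line in which the sv-RD isoform carries a C-terminal GFP, and no group with another genotype or treatment was analysed here. According to the sample descriptions the immunoprecipitation used an anti-GFP antibody. Whole larvae mix all tissues, so a strong peak in few cells and a weak peak in many cells cannot be told apart. The lists hold no expression values, so the labelled stage was not checked against markers.

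Ribosomal proteins coat the ribosomal RNAs of both subunits, and most are needed in every growing cell, so their genes are among the most highly transcribed in larvae. In flies many of them start transcription at a pyrimidine-rich initiator, often called the TCT motif, rather than at the usual initiator, and work in fly cells has tied their promoters to the TBP-related factor Trf2, to M1BP, which binds the core promoter element named Motif 1, and to Dref, which binds the DNA replication-related element (DRE). Loss of a single copy of many of these genes gives the Minute phenotype of slow growth and thin bristles, and Minute cells are removed by wild-type neighbours through cell competition. sv is a Pax-family factor known for its roles in eye cone and pigment cells and in the bristle lineage.

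Sequences around the start are shown for the 3 genes with the strongest summits, and for others that hold a motif or form a pair of copies. All are in dm6, read from the NCBI Release 6 assembly, written 5′ to 3′ on the strand of the gene, with 80 bases before the annotated start and 20 from it. RpL7 is shown from 29 bases before its start, because the neighbouring gene Ripalpha begins there. Capitals mark letters found by search: the DRE (TATCGATA), the core of Motif 1 (GGTCACAC, on either strand), the E-box CAGCTG, or the pyrimidine initiator. The initiator was sought on the sense strand as CCTTTC, with its last base changed as CCTTTT, its first as TCTTTC, or both as TCTTTT. The base before TTT had to lie within 5 bp of a start. Capitals mark the initiator only at the start shown, and RpL7 and RpS27 have it at another annotated start. Summits are not marked, and those of RpL7 (20 bp after the start) and RpL34b (81 bp before it) lie just outside the sequence shown. RpL7, RpL34b and RpS27 had the 3 strongest summits and are at chr2L:10200975-10201023 on the plus strand, chr3R:9401207-9401306 on the minus strand and chr3R:25247495-25247594 on the minus strand.
RpL7: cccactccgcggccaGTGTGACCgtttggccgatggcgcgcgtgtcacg
RpL34b: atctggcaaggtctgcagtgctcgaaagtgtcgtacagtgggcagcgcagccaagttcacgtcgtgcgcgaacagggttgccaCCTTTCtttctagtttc
RpS27: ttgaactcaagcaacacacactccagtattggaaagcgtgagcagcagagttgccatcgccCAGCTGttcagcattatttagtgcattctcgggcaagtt
RpS12 at chr3L:13023272-13023371 on the plus strand and RpS25 at chr3R:11216268-11216367 on the minus strand show the DRE, in RpS25 together with the initiator.
RpS12: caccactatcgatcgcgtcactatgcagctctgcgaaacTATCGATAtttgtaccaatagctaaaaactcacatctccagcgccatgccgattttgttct
RpS25: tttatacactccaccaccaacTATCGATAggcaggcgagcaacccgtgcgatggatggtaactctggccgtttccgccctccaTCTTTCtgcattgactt
Both copies of RpS10 are shown because only 1 copy had a promoter summit, as in most families of duplicated genes. RpS10b at chrX:19597951-19598050 and RpS10a at chr3R:27652680-27652779 are both on the plus strand.
RpS10b: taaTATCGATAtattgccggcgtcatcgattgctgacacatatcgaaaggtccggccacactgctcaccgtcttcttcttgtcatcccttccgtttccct
RpS10a: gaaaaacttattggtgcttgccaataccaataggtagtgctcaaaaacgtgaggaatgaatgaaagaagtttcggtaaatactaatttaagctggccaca
The DRE was present at RpS10b and not found in the window shown for RpS10a. This did not hold for all families with a promoter summit at only 1 copy. In the promoter windows searched for motifs below, RpL10Ab and RpL37-1, the copies with the summit, held the DRE and their partners did not. The reverse was found at RpL24-like and RpL7-like, which held the DRE without a summit, while RpL24 and RpL7 did not. Both RpS15Aa and RpS15Ab held it, and no copy in the RpL22, RpS19 and RpS28 families did.

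Of the 93 ribosomal protein genes, 60 (64.5%) had a summit of the optimal peak set within 500 bp of an annotated start, against 19.2% of the 13852 other protein-coding genes and 19.5% of all protein-coding genes. The optimal set holds the 3823 peaks that the authors kept as reproducible, and a summit within this distance is called a promoter summit. When the whole gene body and 2 kb upstream were counted, 63 ribosomal protein genes (67.7%) had a summit, against 26.9% of all protein-coding genes. All summits of these genes that counted only under the wider definition lay upstream of the start, so no gene had a summit in its body alone. The same number of strongest peaks was then taken from each replicate's own list. In replicates 1, 2 and 3, 54, 64 and 65 ribosomal protein genes had a promoter summit, which is 65.6 ± 6.54% (SD, n = 3), against 18.8 ± 0.812% of the other genes (SD, n = 3). The difference was 40.1, 49.9 and 50.3 percentage points in the 3 replicates, several times the spread between them. Replicate 1 gave the lowest share for ribosomal protein genes and for the other genes alike. With 3 replicates an exact two-sided sign-flip test cannot give a p below 0.25, so no p is given.

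**Figure D1:**
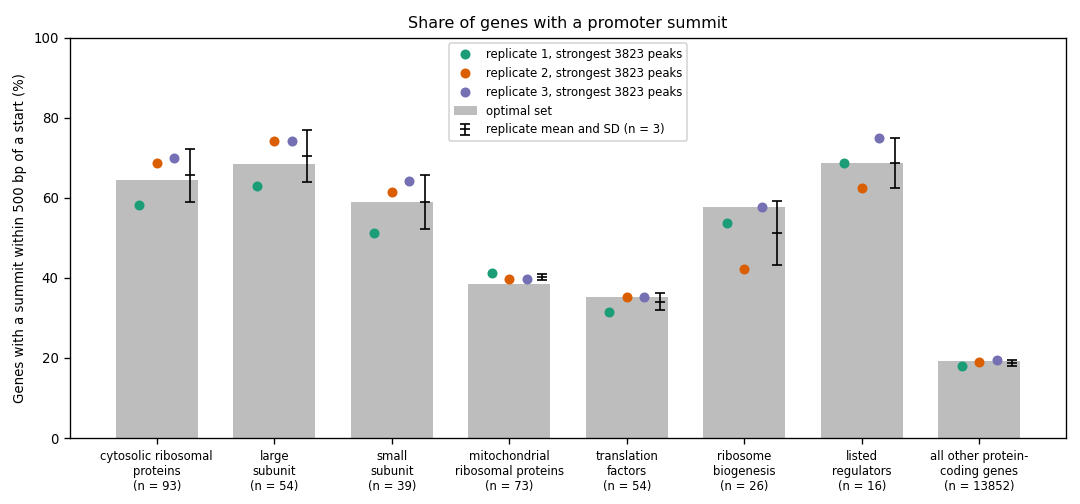
Share of genes with a summit within 500 bp of a start (y axis, percent) for the cytosolic ribosomal protein genes, their large and small subunit sets, 4 related gene lists and all other protein-coding genes (x axis). Grey bars are the optimal set, coloured points the 3823 strongest peaks of each replicate and black marks the replicate mean ± SD; the cytosolic set stands at 64.5% and the other genes at 19.2%.

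Taken as 1 set, the summits of ribosomal protein genes were also higher in the list than those of the other genes. Ranked by the authors' signal value, with rank 1 the strongest peak of the set, the strongest promoter summit of the 60 genes had a median rank of 1146, against 1643 for the 2654 other genes with a promoter summit. Within the strongest 955 optimal peaks lay 26 of the 60 (43.3%), against 31.2% of the other genes. From rank 2868 on lay 5 (8.33%), against 20.2% of the other genes. The very top of the list was not ribosomal: the best rank was 102, at RpL7.

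Among large subunit genes 37 of 54 (68.5%) had a promoter summit, against 23 of 39 small subunit genes (59.0%). Their median rank was 943.0 for the large subunit and 1626 for the small subunit, and 51.4% of large subunit summits lay within the strongest 955 peaks, against 30.4% of small subunit summits. In the replicates the share was 63.0%, 74.1% and 74.1% for the large subunit (70.4 ± 6.42%, SD, n = 3), against 51.3%, 61.5% and 64.1% for the small subunit (59.0 ± 6.78%, SD, n = 3). The large subunit was higher in 3 of 3 replicates, by 11.7, 12.5 and 9.97 points. The gap of 9.54 points in the optimal set was smaller, at 2.14 points, when each summit was given only to the gene with the nearest start, and 20.8 points among the stronger 1911 peaks. No summit of either subunit is an independent replicate, so these shares are descriptions of the 2 gene sets. When genes grouped as duplicates by symbol were counted once, 35 of 47 large subunit entries (74.5%) and 22 of 32 small subunit entries (68.8%) had a promoter summit at 1 copy or more. Some of these groups join proteins of low identity, such as RpL7 with RpL7-like (35.0%).

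RpL7, which encodes a protein of the large subunit, had the strongest summit of the family, with a signal of 453 in the optimal set. Its rank was 125, 97 and 85 in replicates 1, 2 and 3, so it was within the top 125 peaks of every list. RpL34b had a signal of 411 at optimal rank 124 and ranked 197, 105 and 108 in the replicates. RpL23A, which lines the exit of the peptide tunnel and binds factors that meet the new chain, had a signal of 340 at rank 202 and ranked 407, 145 and 171. In both of these genes replicate 1 gave the weaker rank and the other two lay close together. RpL28 had a signal of 279 at rank 328 and ranked 534, 235 and 272. RpL11, a partner of RpL5 and a known link between ribosome assembly and p53 control in mammals, had a signal of 249 at rank 415 and ranked 484, 513 and 403. RpL24, at the face where the subunits meet, had a signal of 246 at rank 421 and ranked 603, 294 and 468. These 3 genes stayed within the strongest 603 peaks in every replicate. RpL30, RpL14 and RpL23 came at ranks 485, 497 and 511, with signals of 233, 231 and 228. The stalk proteins, which recruit translation factors to the ribosome, were spread wider, with RpLP0 at rank 664, RpLP1 at rank 1236 and RpLP2 at rank 1831. RpL3, which lies close to the catalytic centre, was at rank 1414.

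In the small subunit RpS27 was strongest, with a signal of 385 at rank 148 and replicate ranks of 399, 75 and 105. RpS20 followed with a signal of 332 at rank 215 and replicate ranks of 413, 157 and 167. Both were weakest in replicate 1. These were the only 2 small subunit genes among the 12 strongest of the family. The next in order were RpS4 at rank 594, RpS29 at 653, RpS12 at 689 and RpS25 at 706. RpS12, which in flies is needed for Minute cells to be recognised in cell competition, had a signal of 195 and ranked 936, 632 and 378 in the replicates. RpS6, the substrate of S6 kinase, was at rank 2377. The weakest small subunit summit belonged to sta, at rank 3279, and the weakest of the whole family to RpL10Ab, at rank 3629 with a signal of 75.3.

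The replicates agreed on most of these promoters. Since the optimal set was made from pooled reads, each replicate contributed to it. A replicate peak with its summit within 200 bp of the optimal summit was among that replicate's strongest 3823 in all 3 replicates for 50 of 60 ribosomal protein genes (83.3%), against 64.7% of the other genes with a promoter summit. It was so in 2 replicates for 9 genes and in 1 replicate for 1 gene. The 2 sets of genes were not matched on rank, and the ribosomal protein summits had the stronger median rank (1146 against 1643). Across the 179 matched replicate peaks the summit lay a median of 17.0 bp from the optimal one. The median rank of the 60 summits was 1400 in replicate 1, 1096 in replicate 2 and 993.5 in replicate 3. Replicate 1 ranked 39 of the 60 genes (65.0%) weakest of the 3, against 33.4% of the other genes, replicate 2 ranked 6 weakest, against 34.2% of the other genes, and replicate 3 ranked 15 weakest, against 32.4%. Ribosomal protein promoters were therefore lower in the list of replicate 1 than in the lists of the other two. What sets replicate 1 apart was not tested.

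The widest spread of ranks was at RpL41, which encodes the smallest ribosomal protein and ranked 1907, 736 and 279 in replicates 1, 2 and 3. RpS4 ranked 1648, 401 and 295. RpS27 and RpL34a were also among the 5 widest, with weakest ranks 5.32 and 3.99 times their strongest. In each of these genes replicate 1 was the weakest. RpL36A had no peak in the replicate 2 list within 500 bp of a start, while it ranked 1909 in replicate 1 and 2368 in replicate 3. RpL36 was the steadiest, at 1105, 1192 and 1044.

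**Figure D2:**
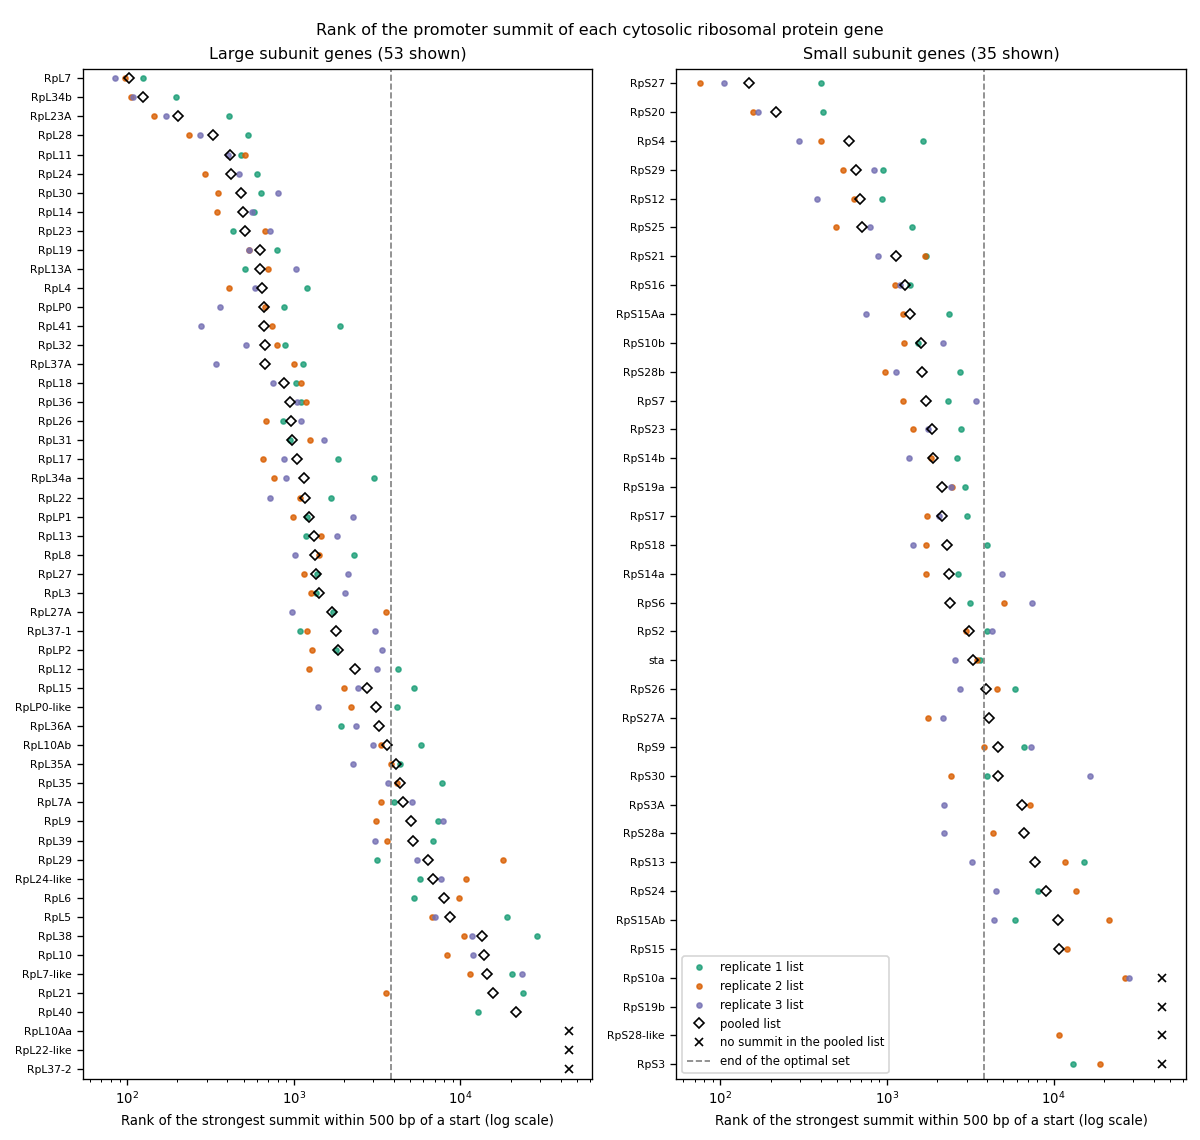
Rank of the strongest summit within 500 bp of a start (x axis, log scale, strongest at left) for 53 large subunit genes and 35 small subunit genes (y axis), in the pooled list (diamonds) and the 3 replicate lists (coloured points). The dashed line is the end of the optimal set at rank 3823; genes below RpL10Ab on the left and below sta on the right have no optimal promoter summit, and crosses mark genes with none in the pooled list.

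The summits of ribosomal protein genes lay close to the start. Their median offset from the nearest annotated start was −44.0 bp, where negative is upstream, with quartiles of −84.0 and −19.0 bp. For the other genes the median was −130 bp, with quartiles of −226 and −58.0 bp. Within 100 bp of the start lay 48 of 60, against 34.6% of the other genes. Upstream of the start were 52 of the 60 (86.7%), against 89.8% of the other genes, so an upstream position was not particular to ribosomal protein genes. The median was −48.0 bp for the large subunit and −38.0 bp for the small subunit. In each replicate's own list the median was −61.5, −39.0 and −35.0 bp for ribosomal protein genes, against −138, −129 and −117 bp for the other genes. The order was the same in 3 of 3 replicates, and the gap was larger than the spread between replicates. Ribosomal protein genes with an unshared promoter had a median of −34.5 bp and those with a shared promoter −51.0 bp, against −150 and −120 bp in the other genes. Those with the pyrimidine initiator had a median of −48.0 bp, against −28.0 bp without it. In the other genes it was −114 bp with the initiator and −130 bp without it. The position within a peak is coarse, since 77.1% of optimal summits sit at the exact centre of peaks with a median width of 520 bp.

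**Figure D3:**
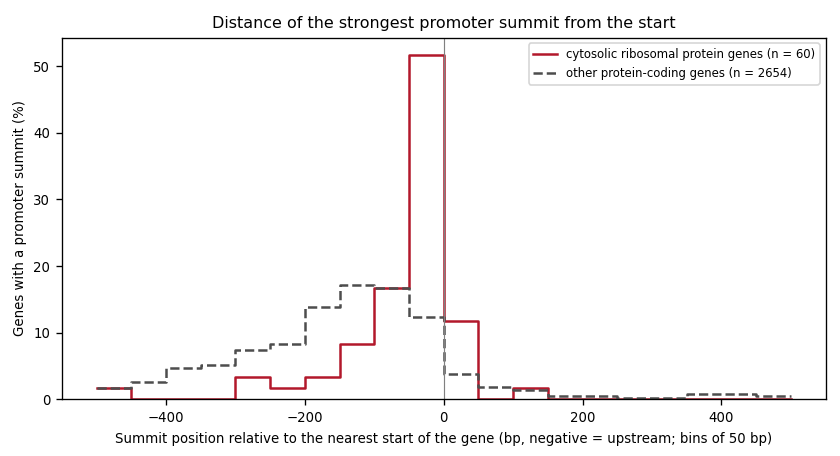
Position of the strongest promoter summit relative to the nearest start of its gene (x axis, bp, bins of 50) as a percentage of genes with such a summit (y axis), for 60 ribosomal protein genes (solid) and 2654 other genes (dashed). Of the ribosomal protein genes 51.7% fall in the last 50 bp before the start, against 12.4% of the other genes.

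Near the edge of the 500 bp limit RpS6 was just inside, with its stronger summit at −454 bp and rank 2377 and a weaker one at −131 bp and rank 2889. Just outside was RpS15, with a summit at −568 bp and rank 3684. RpS19b had a summit at −880 bp and rank 1418, and RpS3, at the entry of the messenger RNA channel, had one at −1805 bp and rank 2408. Each of these 3 was nearer to another gene, 284 bp from a start of CG4927, 498 bp from CG5854 and 444 bp from Sec13, a coat protein of vesicles and the nuclear pore. Of the 60 genes, 9 had a pair of promoter summits, against 14.2% of the other genes with 2 or more, and the gaps ran from 199 to 360 bp. In 7 of the 9 the weaker summit was further upstream.

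Ribosomal protein genes often start next to another gene. A start of another protein-coding gene lay within 500 bp for 38 of 93 (40.9%), against 30.1% of the other genes, and 37 of these 38 had a divergent partner. For a gene with a promoter summit the neighbour was sought only from the start nearest the summit. For a gene without one it was sought from every start. Whether a promoter counts as shared therefore depends in part on its summit. Of the 38, 30 (78.9%) had a promoter summit, against 36.1% of other genes with a shared promoter. Of the 55 genes with an unshared promoter, 30 (54.5%) had a summit, against 11.9% of the other genes. The gap between ribosomal protein genes and the others was thus present in both classes. In all, 33 ribosomal protein genes had a promoter summit that also lay within 500 bp of another protein-coding start, a count not made for the other genes. For 6 of these 33 the start of the neighbour was nearer. RpL13 shared its summit at rank 1331 with Dref, the DRE-binding factor itself, at 108 bp from the start of RpL13 and 24 bp from that of Dref. RpS6 shared its summit with bys, whose yeast counterpart assembles the small subunit, at 454 bp from RpS6 and 95 bp from bys. The same held for RpL18 with Neos, RpL19 with CG3776 and RpS14a with Dhdds, an enzyme of dolichol synthesis. Where the ribosomal protein gene was nearer, the partners included Ripalpha at RpL7 (20 bp from RpL7 and 50 bp from Ripalpha), Nelf-E, a subunit of the polymerase pausing factor, at RpL14 (48 bp from RpL14 and 79 bp from Nelf-E), and Nup37, a nuclear pore protein, at RpS27 (13 bp from RpS27 and 131 bp from Nup37). The translation initiation factor eIF1 shared the summit of RpL28 at 286 bp, Mybbp1A that of RpL36 at 299 bp and the tRNA methyltransferase Trmt61 that of RpL34a at 124 bp. Which of the genes in a pair a peak belongs to cannot be told from these lists.

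Most families of duplicated genes had a promoter summit at 1 copy. The symbols give 13 families with 27 genes, and in 10 families exactly 1 copy had a promoter summit. These copies included RpL7, RpL10Ab, RpL22, RpL24, RpL37-1, RpS10b, RpS15Aa, RpS19a and RpS28b. In 3 families, RpL34, RpLP0 and RpS14, both copies had one, and no family was without. Of all family genes 16 of 27 (59.3%) had a promoter summit, against 44 of 66 genes outside families (66.7%). Of the copies without an optimal promoter summit, RpL10Aa, RpL22-like, RpL37-2, RpS10a, RpS19b and RpS28-like had no summit within 500 bp even in the pooled list of 30000 peaks, while RpS28a, RpL24-like, RpS15Ab and RpL7-like came at pooled ranks 6652, 6859, 10671 and 14426. RpS28a had no promoter peak in replicate 1 and ranked 4326 in replicate 2 and 2196 in replicate 3, the last within that replicate's strongest 3823. RpS10a, RpS19b and RpL22-like are known in flies for expression enriched in the germline, and their partners RpS10b, RpS19a and RpL22 are broadly expressed. RpS10b ranked 1610 in the optimal set and 1534, 1256 and 2178 in the replicates, and RpS10a had only peaks at ranks 26648 and 28279 in replicates 2 and 3. RpS10b was thus the copy with the stronger peak in every replicate.

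In the families with a summit at both copies, RpL34b was at rank 124 and RpL34a at rank 1157, and RpL34b was the stronger in every replicate (197, 105 and 108, against 3040, 761 and 902 for RpL34a). RpLP0, the stalk base, was at rank 664 and RpLP0-like at rank 3099. RpS14b at rank 1892 and RpS14a at rank 2356 lie side by side on the X chromosome and encode identical proteins. Their coding sequences are 97.8% identical, as are 98.2% of the aligned bases of RpS15Aa and RpS15Ab, so reads inside these 2 pairs of genes may be shared between copies. The products of RpL7-like, RpL24-like and RpLP0-like have counterparts in yeast that act in ribosome assembly rather than in the finished ribosome. Their protein identity to RpL7, RpL24 and RpLP0 is 35.0%, 35.5% and 26.8%, so these are families by symbol and not copies of 1 protein. Of the 6 genes of the whole set with a single exon, 1, RpLP2, had a promoter summit, against 59 of 87 genes with introns (67.8%). The other 5 single-exon genes, RpL10Aa, RpL37-2, RpS10a, RpS15Ab and RpS28a, are all copies in these families.

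**Figure D4:**
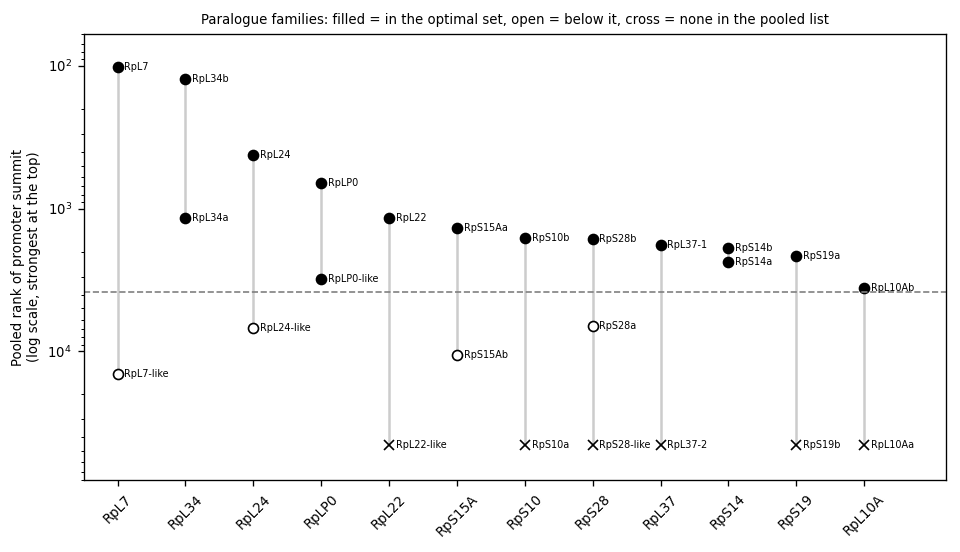
Pooled rank of the strongest promoter summit (y axis, log scale, strongest at the top) for each copy in 12 of the families of duplicated genes (x axis). Filled points lie in the optimal set, open points below it, and crosses mark copies with no summit within 500 bp in the pooled list; 9 of these families have exactly 1 filled point.

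A promoter summit was missing from 33 ribosomal protein genes. RpS15, RpS19b and RpS3 had an optimal summit only further upstream. The other 30 had none in the gene body or 2 kb upstream. They included RpL5, RpL6, RpL7-like, RpL7A, RpL9, RpL10, RpL10Aa, RpL21, RpL22-like, RpL24-like, RpL29, RpL35, RpL35A, RpL37-2, RpL38, RpL39 and RpL40 in the large subunit, and RpS3A, RpS9, RpS10a, RpS13, RpS15Ab, RpS24, RpS26, RpS27A, RpS28-like, RpS28a and RpS30 in the small subunit. Most were not empty. In the pooled list 25 of the 33 (75.8%) had a summit within 500 bp of a start, against 41.9% of the 11198 other genes without an optimal promoter summit. For 13 of the 33 (39.4%) it was within rank 7646, the double of the optimal set, against 13.9% of those other genes. The median pooled rank of the 25 was 6859.

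Closest to the threshold was RpS26, at pooled rank 3938 with a signal of 71.3, where the weakest optimal peak has 72.6. It ranked 5832, 4550 and 2749 in the replicates. RpL35A at pooled rank 4108 ranked 4355, 3842 and 2266. RpS27A, which is made as a fusion with ubiquitin, was at pooled rank 4121 and had no promoter peak in replicate 1, while it ranked 1755 and 2175 in replicates 2 and 3. These 3 genes were therefore in the top 3823 of 1 or 2 replicates without entering the optimal set. RpL35, RpL7A, RpS9 and RpS30 followed at pooled ranks 4360, 4508, 4623 and 4664. RpL5 and RpL10, a partner of RpL11 and a protein needed for subunit joining, were lower, at pooled ranks 8716 and 13895. The 8 with none in the pooled list included RpL10Aa, RpL22-like, RpL37-2, RpS3, RpS10a, RpS19b and RpS28-like, and all but RpS3 belong to a duplicated family. RpS3 had weak peaks at ranks 13006 and 19029 in replicates 1 and 2 and none in replicate 3.

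The pyrimidine initiator and the DRE distinguished ribosomal protein genes from other genes more than they distinguished those with a summit from those without. The pyrimidine initiator lay within 5 bp of a start in 55 of 93 ribosomal protein genes (59.1%), against 2.13% of all protein-coding genes. It was present in 56.7% of those with a promoter summit and 63.6% of those without. When it could lie within 20 bp of a start the order was the opposite, at 93.3% with a summit and 78.8% without. In windows of 300 bases, from 250 before to 50 after the canonical start, the DRE (TATCGATA, which reads the same on both strands) was found in 28 ribosomal protein genes (30.1%), against 8.94% of all promoters. It was in 33.3% of those with a summit and 24.2% of those without, and among the other genes in 13.9% and 7.59%. The core of Motif 1 (GGTCACAC, either strand) was in 15.1%, against 7.54% of all promoters. The E-box CAGCTG was less frequent, in 9.68% against 17.9%, and TATAAA was about equal, in 45.2% against 45.3%. TATAAA was in 41.7% of ribosomal protein genes with a promoter summit and 51.5% of those without. GAGAGAG was in none of the 93, against 6.20% of all promoters. The core of the paired-domain consensus, GTCACGC on either strand, which shares GTCAC with the core of Motif 1, was found only at RpS27A, which is 1.08% of the 93, against 1.51% of all promoters. No ribosomal protein gene with a promoter summit held it in this window. A match or its absence describes these letters only, and these exact searches do not cover degenerate sites.

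**Figure D5:**
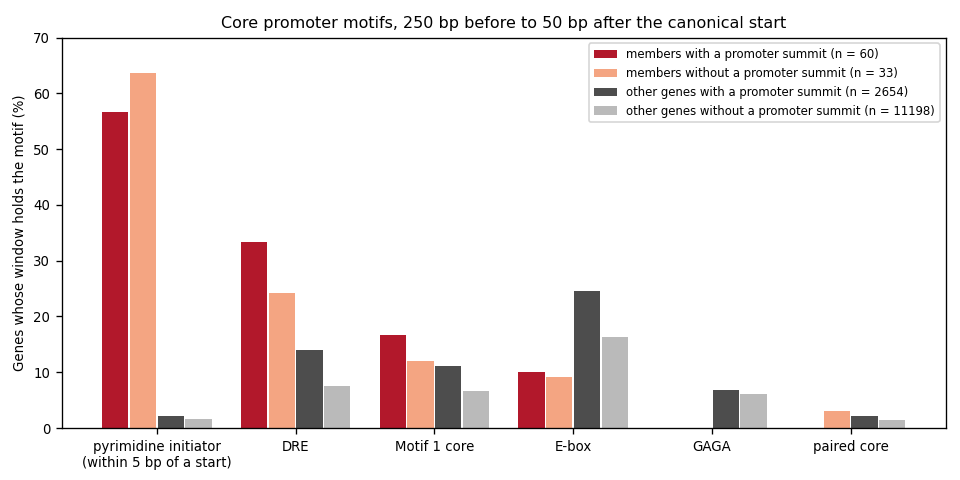
Share of genes whose window holds each motif (y axis, percent) for ribosomal protein genes with and without a promoter summit and other genes with and without one. The pyrimidine initiator is in 56.7% and 63.6% of the ribosomal protein genes and the DRE in 33.3% and 24.2%, against 2.19% and 1.64%, and 13.9% and 7.59%, of the other genes.

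Other genes of protein synthesis are set beside the cytosolic ribosomal protein genes (64.5%) and all other genes (19.2%), and the differences between these shares were not tested. Of the mitochondrial ribosomal protein genes 28 of 73 (38.4%) had a promoter summit, 40.2 ± 0.791% over the replicates (SD, n = 3), and 74.0% of these genes share a promoter with another gene. The strongest were mRpL41, mRpS23 and mRpS10 at ranks 18, 19 and 25, all above RpL7. Of translation factor genes 19 of 54 (35.2%) had one, 34.0 ± 2.14% over the replicates, led by eIF6, which keeps the large subunit from joining too early, at rank 71, eIF4EHP, a repressive cap-binding protein, at rank 252 and the elongation factor subunit eEF1gamma at rank 260. Of 26 listed ribosome biogenesis genes 15 (57.7%) had one, 51.3 ± 8.01% over the replicates, led by eIF6 again, the nucleostemin relative Ns2 at rank 94 and pes at rank 651.

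Of 16 listed regulators of ribosomal protein genes, growth and cell competition, 11 (68.8%) had a promoter summit, against 19.5% of all protein-coding genes, and 68.8 ± 6.25% did over the replicates (SD, n = 3). This short list was drawn up with earlier results of these data known, so its share is not independent support for anything. Chro, a chromodomain protein of chromosome interbands, was at rank 5 and had a signal of 1103. The gene for larp, whose mammalian counterpart controls translation of messenger RNAs with a pyrimidine start, was at rank 39. Irbp18 and Xrp1, which encode partner proteins that act in cell competition of Minute cells, were at ranks 112 and 2890. M1BP was at rank 2170, Dref at rank 1331 on the summit it shares with RpL13, mTor at rank 1234, Thor, the translation repressor downstream of it, at rank 1104, BEAF-32 at rank 1522, pzg at rank 1887 and Mnt at rank 2934. Myc had a summit at rank 1749 in its body or 2 kb upstream only. Trf2, foxo, Max and S6k had no optimal summit under either definition.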

How the data were processed

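Per the deposited file manifests, the authors supplied for each of 3 replicates a relaxed peak list, a relaxed list from the pooled replicates and an optimal set thresholded for reproducibility. Aligner, caller and threshold: not given in the sources used here. Per the labels, chromatin was sonicated to sizes of 200 to 800. The labels' antibody field names sv while their descriptions name anti-GFP. The control and the dm3 lists were not used here. Some genes counted in the totals are not reported here by name or drawn.

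The deposited signal value (column 7) ranked peaks within each list. The deposited −log10 q-value is 3.96 for all optimal peaks and was not used. The deposited summit offset gave positions. The optimal set equals the strongest 3823 of 30000 pooled peaks. Read depth is unknown, so no counting intervals are given.

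Summits were assigned with Python 3.11.15 to genes of Ensembl release 115 (BDGP6.54, the coordinates of dm6). Motifs were searched exactly. Assignment was checked on simulated peaks. No p-values were computed. Members, lists and rules were chosen with earlier results of these data known. Genes named are the 12 strongest, all duplicated families, those near or outside the 500 bp limit, the 5 with the widest replicate spread, those without a summit, shared promoters and up to 3 per list. The stalk proteins, RpL3, RpL5, RpL10, RpL36, RpL36A, RpS4, RpS12, RpS25, RpS29, sta, the regulators beyond the first 3 and the genes of the closing observations were added once values had been seen. Alternatives were other distances, starts, peak numbers and windows, nearest gene only, unshared promoters, and each replicate left out, which kept optimal peaks found in both others.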

Additional observations from a re-analysis of the deposited data

How the results depend on the processing

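Of 78 alternative values, 54 were scored as close to the main value and 24 as moved. Close was a wide band. The main count of 60 genes with a promoter summit was 47 in the stronger peaks and 85 in the pooled list, both scored as close. Only the gaps between gene sets have a direction, and every alternative gap stayed positive. The order of the initiator shares with and without a summit, which reversed at 20 bp, was not among the 78. The gap between large and small subunit, 9.54 points, was least stable: 5.84 within 200 bp, 4.42 within 1000 bp, 20.8 in the stronger 1911 peaks, 7.26 in the pooled list, 2.14 with the nearest gene only, 4.08 for unshared promoters and 10.5 to 15.4 with a replicate left out. The median rank of 1146 was 876.0 in the stronger peaks, 1713 in the pooled list, 1366 for unshared promoters and 943.0 to 1016 with a replicate left out, sets of 2591 to 2710 peaks. The gap to the other genes, 45.4 points, was 38.4 in the pooled list and 40.6 to 46.2 without a replicate. Small subunit genes numbered 15 in the stronger peaks. Unshared promoters alone gave 30 genes, 32 with body or 2 kb upstream, 18 large and 12 small. The mean replicate share of 65.6% was 48.7% with 1911 peaks each and 78.5% with 7646. The DRE was within 50 bases of the summit in 20%, and an initiator within 20 bp of a start in 88.2%. Without a replicate, counts were 51 to 56 (promoter), 54 to 57 (body or 2 kb upstream), 32 to 36 (large) and 19 to 20 (small). No paired analysis between groups of samples was possible because there is only 1 group, and gene sets were compared within each replicate. Counting error is unknown without depth.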

Other observations

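These observations were made after the values were seen and are descriptions without a test. Ribosomal protein genes in flies often carry small nucleolar RNAs, which guide modification of ribosomal RNA, in their introns. Of the 29 ribosomal protein genes with an annotated snoRNA inside, 24 (82.8%) had a promoter summit, against 36 of 64 without (56.2%). The 11 copies of duplicated families that lack a promoter summit hold no annotated snoRNA, so all are among the 64. The same shares over all protein-coding genes were not computed. RpS7 carries 7 of them and was at rank 1713, and RpL28 and RpS16 carry 5 each at ranks 328 and 1283. The part of other properties of these genes, such as length or expression, was not tested.

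By chromosome arm, ribosomal protein genes with a promoter summit were 13 of 15 on X, 12 of 14 on 3L, 13 of 23 on 3R, 12 of 21 on 2R, 10 of 19 on 2L and 0 of 1 on 4. Among other genes the share was 17.1% on X, 20.4% on 3L, 20.9% on 3R, 17.4% on 2R, 19.5% on 2L and 5.06% on 4. Several genes without a summit lie close to a centromere. RpL21 (from 22247111) and RpL5 (from 22532279) on 2L lie beyond the last optimal summit of that arm at 21867457, and RpL38 (to 4516458) on 2R lies before the first at 5122355. RpL10 on 3L, at 23093190 to 23095471, was 216574 bp from the nearest optimal summit. RpL15 lies closer to the centromere on the same arm and had a summit at rank 2747 and −25 bp, at position 27267230, the last optimal summit of 3L. RpS3A, the only one on chromosome 4, was 2097 bp from the nearest optimal summit and ranked 7237 and 2191 in replicates 2 and 3, with no promoter peak in replicate 1.

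The centre of ribosomal protein gene peaks was richer in G and C. Within 50 bases of the summit the median share was 47.0% for ribosomal protein genes, against 34.7% for the other genes with a promoter summit, and within 150 bases it was 39.9% against 36.2%. In promoter windows of 300 bases it was 38.3% against 37.0%. The DRE was within 50 bases of the summit in 20% of these ribosomal protein genes, against 3.47% of the other genes. Summits lay at a median of −44.0 bp from the start in ribosomal protein genes and −130 bp in the other genes. Windows around the summit therefore cover different parts of the promoter, and the part of this in these differences was not tested. Base composition can affect recovery of fragments in sequencing, and its part in the ranks was not tested.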
